A study of Homo sapiens with 6 samples.

Results

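Amelotin (AMTN) and 9 genes of osteoblasts and of mineral formation were followed in U2OS, an established human osteosarcoma line, after silencing of squalene epoxidase (SQLE), an enzyme of cholesterol synthesis. The 10 members were AMTN, RUNX2, SP7, ALPL, SPP1, SPARC, MGP, ENPP1, ANKH and TNFRSF11B, out of 19937 genes in the count table, and each matched a single Ensembl identifier. The libraries were 3 of U2OS cells stably carrying a short hairpin RNA against SQLE (shSQLE) and 3 of cells stably carrying a scrambled hairpin (shControl). Both populations received the pGIPZ lentiviral vector and were selected with puromycin, so the controls share the vector and the selection. Each hairpin is represented by a separately selected population, and the hairpin, the vector insertions and the selection cannot be told apart from the loss of SQLE. The labels do not tell if the 3 libraries of each group are separate cultures, and the methods speak of replication only in general terms, so the spread and the p-values may reflect technical variation only.

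AMTN was chosen by its log2 fold change in this same comparison. The other 9 genes were picked for their known roles, with results of this comparison already known. Their differences between shSQLE and shControl are therefore given as a description, without p-values, and so is any mention of a call. No member's difference is used as support for anything else.

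Bone mineral forms when osteoblasts lay down a collagen matrix and supply phosphate and calcium to it. RUNX2 and SP7 are the transcription factors that commit cells to the osteoblast fate. Tissue-nonspecific alkaline phosphatase, encoded by ALPL, removes pyrophosphate, an inhibitor of crystal growth that ENPP1 makes and that ANKH helps to bring out of the cell. Amelotin and osteopontin (SPP1) belong to the secretory calcium-binding phosphoproteins, a family of matrix proteins of teeth and bone, and osteonectin (SPARC) to the SPARC family related to it. MGP is a vitamin K-dependent inhibitor of calcification, and TNFRSF11B encodes osteoprotegerin, the decoy receptor that holds back osteoclast formation. Amelotin is best known from tooth enamel, where ameloblasts secrete it late in enamel maturation.

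The sequences in front of AMTN, SPP1 and SPARC are shown because these related matrix genes were all expressed and differed in their response. RefSeq start sites were matched for 7 of the 10 members (GRCh38.p14, the assembly of the hg38 alignment), and the 250 bases before each start were searched on both strands for 4 short motifs. These were the RUNX core TGTGGT, the TATA box TATAAA, the AP-1 site TGANTCA and the STAT site TTCNNNGAA, of which the last 2 read the same on both strands. Of 35116 windows of this length in front of RefSeq starts, 11.0% held the RUNX core, 10.7% the TATA box, 6.57% the AP-1 letters and 6.57% the STAT letters. The AMTN window was chr4:70518319-70518568 (+ strand), the SPP1 window chr4:87975464-87975713 (+ strand) and the SPARC window chr5:151686916-151687165 (- strand). Some windows, those of SPP1 and SPARC among them, overlap the gene spans given below, which come from GENCODE and not from RefSeq. Capitals mark the letters of a motif.
AMTN: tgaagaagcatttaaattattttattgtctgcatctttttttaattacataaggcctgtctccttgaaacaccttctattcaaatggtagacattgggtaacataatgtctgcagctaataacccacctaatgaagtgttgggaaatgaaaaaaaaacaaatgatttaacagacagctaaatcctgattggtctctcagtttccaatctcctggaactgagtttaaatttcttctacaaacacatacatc
SPP1: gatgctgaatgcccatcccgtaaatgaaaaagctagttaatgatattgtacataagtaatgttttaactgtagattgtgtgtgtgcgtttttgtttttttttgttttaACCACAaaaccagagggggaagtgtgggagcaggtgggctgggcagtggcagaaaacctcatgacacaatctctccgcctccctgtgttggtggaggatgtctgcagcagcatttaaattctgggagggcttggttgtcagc
SPARC: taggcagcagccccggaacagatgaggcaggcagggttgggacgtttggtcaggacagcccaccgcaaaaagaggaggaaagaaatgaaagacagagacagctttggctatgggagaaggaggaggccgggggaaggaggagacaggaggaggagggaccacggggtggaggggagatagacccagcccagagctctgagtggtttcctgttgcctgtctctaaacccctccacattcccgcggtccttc
The SPP1 window held 1 RUNX core, written ACCACA on the strand of the gene, which begins 142 bases before the start. The AMTN and SPARC windows held no match to any of the 4 motifs. Of the other members, the upstream of the 2 RUNX2 start sites held 2 RUNX cores, both written ACCACA, and 1 AP-1 site, and the other none. In 1 of 3 ALPL windows the TATA letters were found as TTTATA, so TATAAA lies on the strand opposite to the gene. A match describes letters in the window and not a bound site, and a window without a match says nothing of the factor.

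The check of the knockdown came first. The normalised count of SQLE, its counts scaled to the average effective size of the libraries, was 1349, 1867 and 1924 in the shControl libraries and 229, 204 and 219 in the shSQLE libraries, so SQLE was low in every library labelled shSQLE. Totals ranged from 12212378 to 14393292 counts per library, and the mitochondrial share from 5.76% to 7.74%. Taking 3 counts as the floor of detection, the floor lay between 2.71 and 3.46 normalised counts. Of 12450 genes that passed the filter on low counts, 354 were lower in shSQLE past an adjusted p of 0.05 (2.84%) and 46 were higher (0.369%), in the quasi-likelihood test of edgeR adjusted by Benjamini-Hochberg over these genes. In the following, a gene past this threshold is said to be called. Leaving out shControl replicate 1 raised the number of called genes from 400 to 4264, and leaving out any other library lowered it to between 109 and 211.

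Of the 10 members, 7 passed the filter and 3 (SP7, ALPL and MGP) did not. Among the 7, AMTN and TNFRSF11B were called, both lower in shSQLE, beside 2.84% of all genes tested called lower. No member was called higher, beside 0.369% of all genes. The median log2 fold change of the 7 was -0.29 and that of all genes tested -0.01. AMTN passed the filter through its counts in shControl alone, and the comparison itself chose it, so nothing is read from this count or this median. The normalised counts did not overlap between the groups in 4 of the 7 members (AMTN, TNFRSF11B, SPARC and ENPP1), beside 22.1% of all genes tested.

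**Figure D1:**
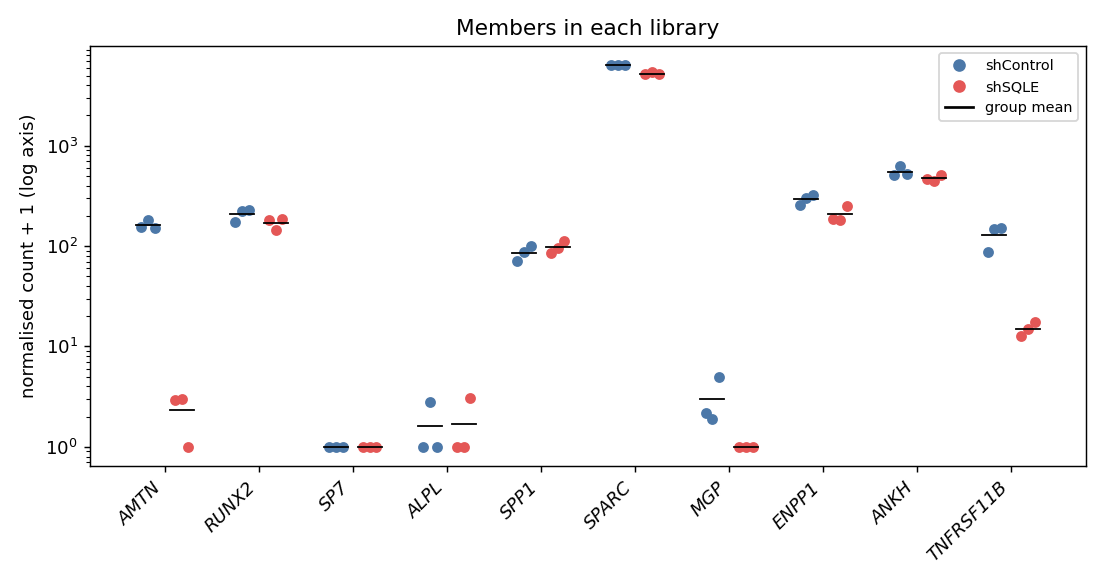
Normalised counts plus 1 of the 10 members on a log axis, with 1 point per library and a bar at each group mean (3 shControl and 3 shSQLE libraries). AMTN dropped from 151 or more in each shControl library to 1.97 or less in each shSQLE library, TNFRSF11B lay between these extremes, and SP7 had no count anywhere.

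AMTN (ENSG00000187689, chromosome 4, 70518569 to 70532743, + strand, a canonical transcript of 9 exons and 1009 nt in GENCODE v44) was moderately expressed in the control cells and at or under the floor of detection after silencing. It had 132, 198 and 154 counts in shControl replicates 1, 2 and 3 and 2, 2 and 0 counts in shSQLE replicates 1, 2 and 3. Every shControl library lay far above every shSQLE library, and the controls differed little among themselves. The normalised counts were 161 ± 15.8 (SD, n = 3) in shControl and 1.31 ± 1.13 (SD, n = 3) in shSQLE, and the coefficient of variation in shControl was 9.81%. Since no shSQLE library had more than 3 counts, the difference is a lower bound, with AMTN at least 53.7-fold lower when each shSQLE library is set to the floor of 3 counts. The bound rests on this chosen floor and is no confidence limit, and it does not cover variation between cultures. The fitted log2 fold change of -6.79 (standard error 0.38) depends on how counts near 0 are moderated and sets no bound. Leaving out each library in turn gave fitted values from -7.16 to -6.25 over the 6 fits. Because AMTN was chosen by this very difference, these values are no sign of stability. In bulk RNA, fewer cells making a transcript and less transcript per cell cannot be told apart, and this holds for AMTN as for the other genes.

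Relative to the length of its transcript, AMTN was the second most abundant member in shControl. Its level, in counts scaled by library size and transcript length (RPKM), was 11.8 ± 1.16 (SD, n = 3), above that of 59.1% of the genes tested. In shSQLE the level was 0.0962 ± 0.0833 (SD, n = 3), above that of 0.554% of the genes tested. The gene does not overlap another annotated gene of the table.

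The genes beside AMTN on chromosome 4 were for the most part silent in both groups. The 5 nearest genes on its upstream side (CABS1, SMR3A, SMR3B, OPRPN and MUC7), which are genes of saliva and of secretory tissue, had no count in any library. Downstream, the enamel gene ENAM and JCHAIN had no count, and the enamel gene AMBN had 1 count, in shSQLE replicate 1. The next genes on that side were expressed. UTP3, a factor of ribosome assembly, had 923 ± 54.9 normalised counts in shControl and 1014 ± 38.3 in shSQLE (SD, n = 3 each), at 0.14 ± 0.11 (SE) on the log2 scale with an adjusted p of 0.654. RUFY3 had 327 ± 43.9 and 242 ± 15.4 (SD, n = 3 each), at -0.44 ± 0.15 (SE) on the log2 scale with an adjusted p of 0.201. It was called without shControl replicate 1 (log2 fold change -0.54, adjusted p = 0.0037), a fit that called 18.3% of all genes tested lower. Within this stretch of genes, AMTN was the gene that went from a clear count to the floor.

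**Figure D2:**
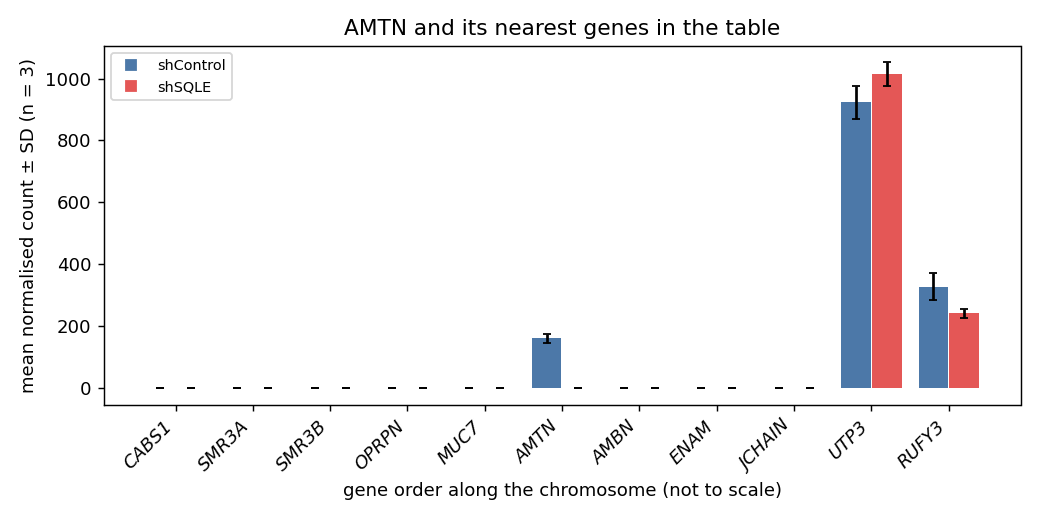
Mean normalised count (bars, with SD, n = 3) of AMTN and of the 5 nearest genes of the table on each side, in the order of the chromosome and not to scale. AMTN reached 161 in shControl and 1.31 in shSQLE, 8 of the 10 neighbours were at or near 0 in both groups, and UTP3 and RUFY3 were expressed in both.

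Of a list of 13 genes, the secretory calcium-binding phosphoproteins with SPARC and SPARCL1 of the related SPARC family, 3 were expressed. Of the 10 others, 9 had no count in any library, among them the enamel genes ENAM, ODAM and both amelogenin genes, and the bone and dentin genes IBSP, DMP1, MEPE and DSPP, as well as SPARCL1. AMBN had the single count given above. The expressed genes were AMTN, SPP1 and SPARC, and they differed in direction and size.

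SPP1 (ENSG00000118785, chromosome 4, 87975667 to 87983532) encodes osteopontin, an acidic matrix protein that binds mineral and integrins. It had 60, 96 and 100 counts in the shControl libraries and 86, 96 and 109 in the shSQLE libraries. The groups overlapped, and the normalised counts were 84.7 ± 14.5 in shControl and 97.0 ± 14.1 in shSQLE (SD, n = 3 each). The log2 fold change was 0.19 (standard error 0.20), a difference within the spread of the libraries, and it stayed between 0.07 and 0.32 over the alternatives.

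SPARC (ENSG00000113140, chromosome 5, 151661096 to 151686975) encodes osteonectin, a collagen-binding glycoprotein of bone matrix, and it was the most abundant member. The normalised counts were 6324, 6345 and 6358 in the shControl libraries and 5167, 5389 and 5139 in the shSQLE libraries. The groups did not overlap, and the control libraries had a coefficient of variation of 0.271%. This is less than counting error alone would usually give at 5477 to 7017 counts, so it is no measure of their precision. The shSQLE mean came to 82.5% of the control mean, or -0.28 ± 0.09 (SE) on the log2 scale. This small difference was not called with all 6 libraries. Without shControl replicate 1 it was called at the same log2 fold change of -0.28, beside 18.3% of all genes tested called lower.

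Of the osteoblast transcription factors, RUNX2 was expressed and SP7 was not. RUNX2 (ENSG00000124813, chromosome 6, 45328157 to 45664349) had 149, 245 and 232 counts in the shControl libraries and 185, 146 and 178 in the shSQLE libraries. The lowest control, replicate 1, lay below 2 of the 3 shSQLE libraries after normalisation, so the groups overlapped. The normalised counts were 207 ± 30.5 in shControl and 169 ± 22.0 in shSQLE (SD, n = 3 each), which gave -0.29 ± 0.17 (SE) on the log2 scale and was not called. Without shControl replicate 1 it was -0.41 and called, beside 18.3% of all genes tested called lower in that fit. RUNX2 shares its locus with SUPT3H on the opposite strand, and whether the counting used the strand is not given in the sources used here. SP7 (osterix, ENSG00000170374), which acts after RUNX2, had no count in any of the 6 libraries.

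ENPP1, which makes pyrophosphate, and ANKH, which helps to bring it out of the cell, were expressed, while the opposing phosphatase ALPL was not detected. ALPL (ENSG00000162551) had 2 counts in shControl replicate 2, 2 counts in shSQLE replicate 3 and none in the other libraries, which is under the floor in both groups and allows no fold. ENPP1 (ENSG00000197594, chromosome 6, 131808016 to 131895155), which releases pyrophosphate from extracellular ATP, had normalised counts of 254, 301 and 318 in shControl and of 184, 181 and 252 in shSQLE. The highest shSQLE library lay just below the lowest control, with means of 291 ± 33.1 and 206 ± 39.9 (SD, n = 3 each). The log2 fold change was -0.50 (standard error 0.18), which was not called with all libraries. Without shControl replicate 1 it was called at -0.59, beside 18.3% of all genes tested called lower in that fit.

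ANKH (ENSG00000154122, chromosome 5, 14704800 to 14871778) encodes a membrane protein needed for the release of ATP and pyrophosphate. Its normalised counts were 503, 628 and 519 in shControl and 463, 439 and 509 in shSQLE. The highest shSQLE library lay above the lowest control, so the groups overlapped. The log2 fold change was -0.23 (standard error 0.14) and was called in none of the fits.

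MGP (ENSG00000111341) was at the edge of detection. It had 1, 1 and 4 counts in the shControl libraries and 0 in each shSQLE library, 6 counts in all, too few to be tested or to give a fold. It overlaps C12orf60 on the opposite strand, which had 32.5 normalised counts in shControl. Together, SP7, ALPL and MGP had 10 counts over the 6 libraries, and IBSP, another defining marker of mature osteoblasts, had none. BGLAP, the gene of osteocalcin, had 5 or fewer counts in each library. The label of the line is osteosarcoma, and in both groups the cells expressed RUNX2, SPARC and SPP1, the last a marker of maturing osteoblasts, while SP7, ALPL, IBSP and BGLAP were at or near 0.

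TNFRSF11B (ENSG00000164761, chromosome 8, 118923557 to 118951885, - strand) showed the second large difference among the members. It had 75, 162 and 153 counts in the shControl libraries and 12, 14 and 16 in the shSQLE libraries. The shControl libraries varied, with replicate 1 well below the other two, but the lowest of them was still far above the highest shSQLE library. The normalised counts were 128 ± 35.7 in shControl and 14.0 ± 2.35 in shSQLE (SD, n = 3 each), which put shSQLE at 11.0% of the control mean, or 9.12-fold lower. The log2 fold change was -3.19 (standard error 0.30) with all libraries, and -3.40 without shControl replicate 1. TNFSF11 (RANKL), the ligand that osteoprotegerin captures, had no count in any library.

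**Figure D3:**
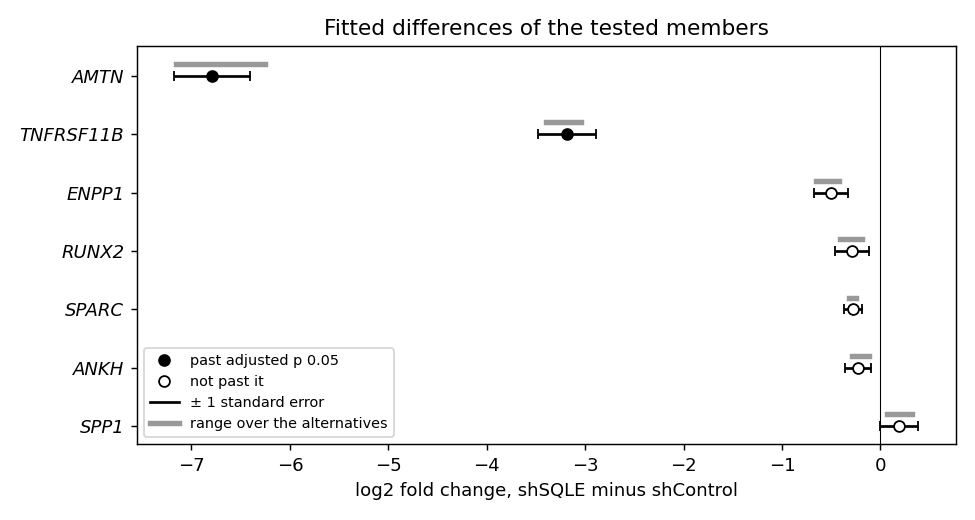
Log2 fold changes (shSQLE minus shControl) of the 7 tested members, with 1 standard error (black bars) and the range over all alternatives (grey bars). AMTN at -6.79 and TNFRSF11B at -3.19 lay far from the other 5 members, which lay between -0.50 and 0.19. The AMTN value rests on counts near 0.

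The order of the members by level per transcript length changed between the groups. In shControl the order was SPARC (136 RPKM), AMTN (11.8), ANKH (4.97), TNFRSF11B (4.54), SPP1 (4.02), ENPP1 (2.90) and RUNX2 (2.77). SPARC and AMTN stood clear of the genes next in line, while the ranges of ANKH and TNFRSF11B, of TNFRSF11B and SPP1, and of ENPP1 and RUNX2 overlapped. In shSQLE the order was SPARC (112), SPP1 (4.60), ANKH (4.25), RUNX2 (2.27), ENPP1 (2.05), TNFRSF11B (0.497) and AMTN (0.0962). There the ranges of SPP1 and ANKH and of RUNX2 and ENPP1 overlapped, and TNFRSF11B and AMTN had moved to the end. In 6 of the 7 tested members shControl replicate 1 was the lowest of the 3 controls, which was so in 47.7% of all genes tested. AMTN was the exception, and its value in shControl replicate 1 (152) lay beside that in replicate 3 (151).

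The profile of AMTN was compared with that of other genes over the 6 libraries by Pearson's r of log2 CPM (counts scaled to library size, prior count 2). Among 9932 genes with at least 100 normalised counts in shControl, the most alike were IFIT3 (r = 0.999), VEGFC (0.999), NPTXR (0.997), TFPI2 (0.997) and PDIA3 (0.997). The 6 libraries form 2 groups, so these values mostly reflect a difference between the groups with little spread within them, and they are given as a description. The likeness is in shape and not in size, since the log2 fold changes were -2.17 for IFIT3, an interferon-induced gene that overlaps LIPA on the opposite strand, -1.22 for the lymphatic growth factor VEGFC, -0.91 for NPTXR, -1.20 for the protease inhibitor TFPI2 and -0.78 for the disulfide isomerase PDIA3. NPTXR lost its call without shControl replicate 2 (adjusted p = 0.0657) and without shSQLE replicate 1, 2 or 3 (up to 0.0861), and PDIA3 without shSQLE replicate 1 (0.0584) or 3 (0.0504). Among the members, r with AMTN was 0.992 for SPARC, 0.970 for TNFRSF11B, 0.754 for ENPP1, 0.657 for ANKH, 0.614 for RUNX2 and -0.52 for SPP1.

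Other genes were taken from 13 lists written by role, for bone and mineral and for other cell types. The lists held 187 genes beside the members, of which 113 were tested. Of these, 15 were called lower and 1 higher, or 14.2%, beside 3.21% of all genes tested called in either direction. Their median log2 fold change was -0.20, and -0.01 for all genes tested. The lists were chosen with earlier results of these data known, so this share and this median are a description only. The number rested on single libraries, with 48 genes called without shControl replicate 1, 9 without shControl replicate 2, 10 without shControl replicate 3, and 8, 7 and 6 without shSQLE replicates 1, 2 and 3.

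Bone matrix proteins held the most calls. Of 18 genes, 9 were tested, SPARC among them, and all 9 had lower fitted values in shSQLE, with a median of -0.65 on the log2 scale (-0.75 without SPARC). Calls were made for 5, all lower. The tested genes without a call lay between -0.28 and -0.22 on the log2 scale, and the groups overlapped in all of these but SPARC. The fall was thus not uniform over the list. COL5A1, a chain of type V collagen, fell from 1242 ± 69.7 to 294 ± 6.13 normalised counts (SD, n = 3 each), at -2.08 ± 0.11 (SE) on the log2 scale with an adjusted p of 0.000299. FAM20C, the kinase that phosphorylates secreted mineral-binding proteins such as osteopontin, fell from 723 ± 139 to 340 ± 24.7 (-1.09 ± 0.16 SE on the log2 scale, adjusted p = 0.0125), and lost its call without shSQLE replicate 1, 2 or 3 (adjusted p of 0.0756, 0.0779 and 0.102). The glycoprotein TNC fell by 1.08 on the log2 scale (adjusted p = 0.0171). Named after their values were seen, LOX, which crosslinks collagen, and COL1A1, a chain of type I collagen, completed the 5, at -0.85 (adjusted p = 0.0442) and -0.65 (adjusted p = 0.0452). TNC, LOX and COL1A1 lost their calls in each fit that left out 1 library except that without shControl replicate 1, with adjusted p up to 0.108, 0.219 and 0.253. LOX overlaps SRFBP1 on the opposite strand. COL1A2, the partner chain of COL1A1, had 9 counts over the controls and 0 in shSQLE, which was too few to test.

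Among osteoblast transcription factors, 15 of 18 genes were tested, with a median of -0.17, and 1 was called. PRRX1, a homeobox factor of skeletal mesenchyme, fell from 450 ± 122 to 122 ± 3.58 normalised counts (SD, n = 3 each), at -1.88 ± 0.22 (SE) on the log2 scale with an adjusted p of 0.00407, and it was called in every alternative. CBFB, which binds DNA together with RUNX2, was at 1451 ± 320 and 1437 ± 29.4 (-0.01 ± 0.17 SE on the log2 scale, adjusted p = 0.985), with fitted values from -0.19 to 0.10 over the alternatives, so no direction is given. The list thus held 1 large fall beside members such as RUNX2 whose differences were within or near the spread.

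For phosphate and pyrophosphate handling, 10 of 15 genes were tested, with a median of -0.08 and 1 call. NT5E (CD73), which turns AMP into adenosine and phosphate outside the cell, fell from 1269 ± 204 to 576 ± 19.3 normalised counts (SD, n = 3 each), at -1.14 ± 0.14 (SE) on the log2 scale with an adjusted p of 0.00591. It lost its call without shSQLE replicate 1, 2 or 3, with adjusted p of 0.0544, 0.0543 and 0.0575. The phosphate importer SLC20A1 was abundant and nearly level between the groups, at 11877 ± 291 and 12159 ± 299 (0.03 ± 0.09 SE on the log2 scale, adjusted p = 0.918), and its sign turned with library size only (-0.01). Of the calcification inhibitors and vitamin K genes, 6 of 12 were tested and 0 were called by edgeR, against 2 at an unadjusted p under 0.05 and 1 called by DESeq2. FBN1, which encodes the structural protein fibrillin, came closest in this list (-1.09 ± 0.24 SE on the log2 scale, adjusted p = 0.0537). It was called without shControl replicate 1 (log2 fold change -1.29), with no filter on low counts (adjusted p = 0.0340) and by DESeq2 (0.000726).

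In the BMP pathway, which drives RUNX2 in osteoblast precursors, 28 of 35 genes were tested, 22 had lower fitted values in shSQLE (median -0.24), and 3 were called lower and 1 higher. GREM1, a secreted BMP antagonist, fell from 3475 ± 713 to 1330 ± 78.7 normalised counts (SD, n = 3 each), at -1.39 ± 0.16 (SE) on the log2 scale with an adjusted p of 0.00461. The ligand BMP2 fell from 278 ± 37.2 to 113 ± 25.2 (-1.30 ± 0.20 SE on the log2 scale, adjusted p = 0.0144), and lost its call without shControl replicate 2 (0.0595) and without shSQLE replicate 2 (0.0675) or 3 (0.0970). SMAD7, an inhibitory SMAD, fell by 0.68 on the log2 scale (adjusted p = 0.0213). NOG (noggin), a BMP antagonist like GREM1 and named after its values were seen, was the call in the opposite direction, from 131 ± 20.6 to 231 ± 15.9 (0.82 ± 0.16 SE on the log2 scale, adjusted p = 0.0356). SMAD7 and NOG lost their calls in each fit that left out 1 library except that without shControl replicate 1, with adjusted p up to 0.146 and 0.191. A ligand and 2 antagonists thus moved in different directions. Of 30 genes of WNT signalling, 19 were tested with a median of -0.01, and the receptor FZD8 was called, falling from 564 ± 18.8 to 266 ± 5.58 (-1.08 ± 0.11 SE on the log2 scale, adjusted p = 0.00267).

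Of 11 genes that couple osteoblasts to osteoclasts, 8 were tested, with a median of -0.11 (0.01 without TNFRSF11B). TNFRSF11B was called as described, and SEMA3A, a semaphorin known to protect bone, fell from 436 ± 128 to 71.4 ± 16.2 normalised counts (SD, n = 3 each), at -2.61 ± 0.27 (SE) on the log2 scale with an adjusted p of 0.00267. SEMA3A was called in every alternative, and its lowest control library (289) lay above its highest shSQLE library (88.4). The receptor TNFRSF11A (RANK) and the cytokine CSF1 were at 0.45 (standard error 0.13, adjusted p = 0.149) and 0.31 (standard error 0.13, adjusted p = 0.313) on the log2 scale, not called with all libraries. Both were called only without shControl replicate 1, a fit that called 1964 of 12570 genes higher.

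**Figure D4:**
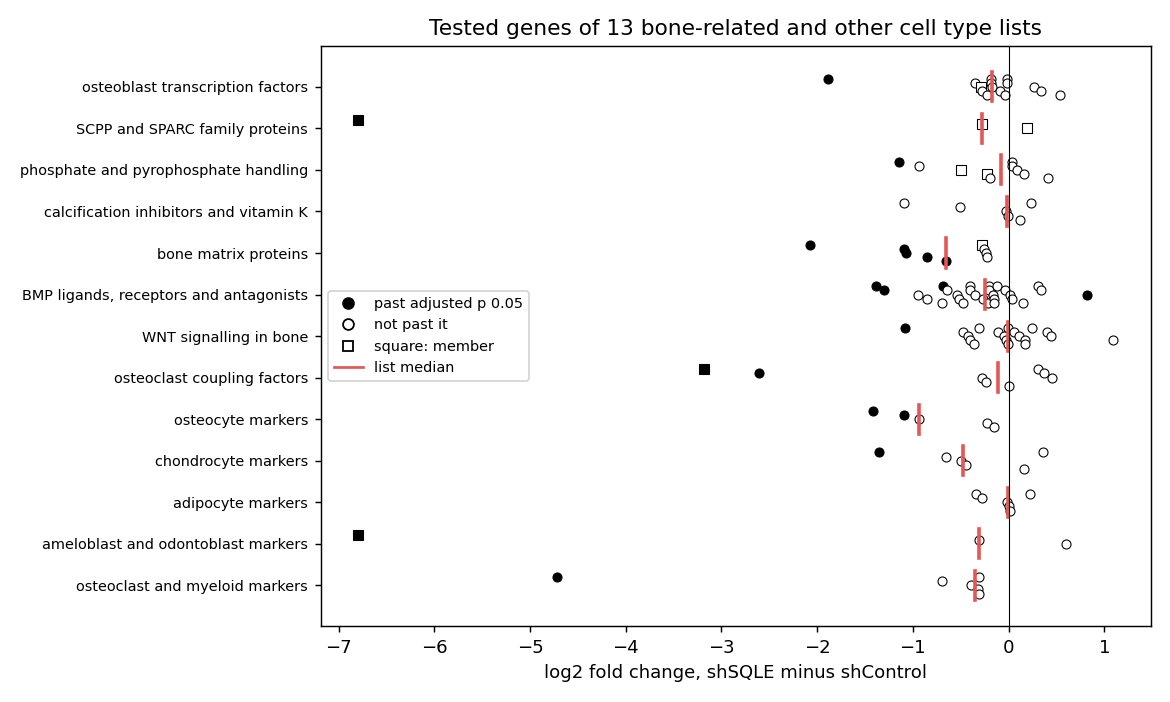
Log2 fold changes (shSQLE minus shControl) of the tested genes in 13 lists, 1 point per gene, filled where past an adjusted p of 0.05 and square for members, with the list median as a red line. Bone matrix proteins had lower fitted values in all 9 tested genes (median -0.65), with 5 of them called, while WNT genes were centred on -0.01.

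Markers of tooth-forming cells did not accompany AMTN. Of 12 ameloblast and odontoblast markers, 7 had no count and 3 were tested, AMTN and 2 others that were not called. The summed level of the list was 14.0 to 16.6 CPM in shControl and 3.14 to 3.56 in shSQLE, but this sum includes AMTN. Without AMTN it was 2.65 to 3.28 CPM in shControl and 2.995 to 3.41 in shSQLE, which overlapped. The other 2 tested genes, SLC24A4 and WDR72, were at 0.60 (standard error 0.27, adjusted p = 0.357) and -0.31 (standard error 0.25, adjusted p = 0.667) on the log2 scale. Of 9 osteocyte markers, 5 were tested and all 5 had lower fitted values, with a median of -0.94. FAM20C, listed here too, and RELN were called. RELN fell from 105 ± 34.4 to 39.6 ± 7.11 normalised counts (SD, n = 3 each, adjusted p = 0.0432) and lost its call in each fit that left out 1 library except that without shControl replicate 1, with adjusted p up to 0.195. The osteocyte genes DMP1, MEPE and FGF23 had no count, and SOST had 2, so these calls came without the defining genes of that cell.

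Since the members were chosen with this comparison known, the number of them called under other settings is also a description only. Without shControl replicate 1, 5 members were called lower (AMTN, TNFRSF11B, SPARC, ENPP1 and RUNX2), beside 18.3% of all genes tested called lower in that fit. The filter that asked for 10 counts in every library left AMTN out, and TNFRSF11B was then the only member called.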

How the data were processed

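Poly(A) RNA of 3 shSQLE and 3 shControl libraries was read as pairs of 151 bp. The count table deposited by the authors holds whole, unnormalised read numbers for each gene, made by trimming with fastp 0.20.0, aligning to hg38 with STAR 2.7.9a and counting with featureCounts 2.0. The annotation release, the strand setting and the handling of reads with several alignments are not given in the sources used here.

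Of the 19937 genes, 3942 had no count. Symbols and positions were taken from GENCODE v44 (32 identifiers had no symbol). Counts were analysed in R 4.3.3 with edgeR 4.0.16, using filterByExpr (12450 genes left), TMM normalization and the quasi-likelihood test of condition, with Benjamini-Hochberg adjustment over all genes tested. The study names DESeq2, which was run as an alternative (version 1.42.0). Standard errors (SE) were obtained from each log2 difference and its F statistic. The fit was tested on simulated data. Levels per length used the canonical transcript.

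The members and lists were chosen with earlier results of these data known. Genes named beside the members are SQLE, the list of secretory calcium-binding phosphoproteins (SCPP) and SPARC family genes, the 3 called genes with the smallest p in each of 13 lists (or the gene with the smallest p where none was called), the 5 nearest genes of the table on each side of AMTN and the 5 genes most correlated with it. Other genes were named after their values were seen. With 12212378 to 14393292 counts per library, 3 counts were taken as the floor. This is a chosen value and no confidence limit, and it does not cover variation between cultures. Alternatives were DESeq2, its size factors, library size only, no filter, at least 10 counts in every sample, a replicate block and leaving out each library in turn.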

Additional observations from a re-analysis of the deposited data

How the results depend on the processing

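Of the named differences, those of CBFB (-0.19 to 0.10) and SLC20A1 (-0.01 to 0.06) changed sign in 5 and 1 of 12 alternatives. The other named genes that were fitted kept their direction in the alternatives that gave them a value. AMTN and ATP6V0D2 had none with at least 10 counts in every sample. The number of genes called was 400 (354 lower and 46 higher), 714 with DESeq2 (556 lower and 158 higher), and 109 to 4264 when 1 library was left out, the highest without shControl replicate 1 (2300 lower and 1964 higher). The cause was not tested. The number of members called was 2. It was 1 with at least 10 counts in every sample, since AMTN was then not tested, and 2 to 5 when 1 library was left out. The number of listed genes called beside the members was 16, and 6 to 48 when 1 library was left out.

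With a replicate block 396 genes were called, 2 members and 14 listed genes, among them FBN1 (adjusted p = 0.0235) but neither SMAD7 (adjusted p = 0.0509), LOX (0.0605) nor COL1A1 (0.106). The libraries share only a number: the deviations of same-numbered libraries from their group means correlated at 0.14, -0.43 and 0.54, and not every library correlated best with its own number.

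LOX and RELN also lost their calls with library size only (adjusted p = 0.0539 and 0.0532), COL1A1 with no filter on low counts (0.0587), and LOX, COL1A1 and RELN with at least 10 counts in every sample (0.0511, 0.0511 and 0.0506). Depth limits what can be said of SP7, ALPL and MGP, and of AMTN in shSQLE: a count at or under 3 per library is not detectable expression at this depth, and not absence.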

Other observations

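Some markers of other mesenchymal lineages were present in both groups. Of 16 chondrocyte markers, 6 were tested, with a median log2 fold change of -0.47. The summed level of the list was 121 to 123 CPM in shControl and 108 to 121 in shSQLE. Most of this sum comes from SOX9 and COL9A3, so it is no measure of the list as a whole. COL9A3, a chain of type IX collagen, fell from 303 ± 34.3 to 119 ± 18.8 normalised counts (SD, n = 3 each), at -1.35 ± 0.17 (SE) on the log2 scale with an adjusted p of 0.00575 in edgeR, and lost its call without shSQLE replicate 3 (adjusted p = 0.0581). It overlaps TCFL5 on the opposite strand. SOX9, the master factor of cartilage, was at 1107 ± 69.9 and 1235 ± 68.9 (log2 fold change 0.16, adjusted p = 0.601). The aggrecan gene ACAN had 1, 1 and 0 counts in shControl and 3, 7 and 5 in shSQLE, too few to be tested. Of 11 adipocyte markers, 6 were tested and 0 were called by edgeR, and 0 had an unadjusted p under 0.05. DESeq2 called 0. PPARG had the smallest p of the list, at 0.23 on the log2 scale (standard error 0.11, adjusted p = 0.411).

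Of 12 osteoclast and myeloid markers, 6 were tested, and the summed level of the list was 17.4 to 22.0 CPM in shControl and 9.68 to 11.8 in shSQLE. This sum includes ATP6V0D2, whose fall is part of the difference, so it is no measure of the list as a whole. ATP6V0D2, a subunit of the vacuolar proton pump best known from osteoclasts, had 40, 72 and 83 counts in shControl and 1, 5 and 1 in shSQLE (log2 fold change -4.72, standard error 0.49, adjusted p = 0.00260). The gene passed the filter through its counts in shControl alone, and the fitted value depends on how counts near 0 are moderated. ATP6V0D2 was called in each alternative that tested it. It was named for its small p in this comparison, so neither these calls nor its adjusted p are a sign of stability. The leukocyte gene PTPRC had no count, and the macrophage factor SPI1 had 1 count in each group. The tartrate-resistant phosphatase ACP5 and the protease CTSK were at -0.31 and -0.31 on the log2 scale, not called (adjusted p = 0.733 and 0.773).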
